A study of Homo sapiens with 12 samples.

Results

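The 10 genes described here take part in the local activation of glucocorticoids and in the response to them. They are HSD11B1, NR3C1, FKBP5, TSC22D3, TSC22D1, ZBTB16, AKR1C1, AKR1C2, AKR1C3 and SGK1, found by symbol among 28901 named genes, of which 17173 had at least 10 counts over the 12 libraries. They were selected on known role and on measured values of these libraries, since the differences between linc-ADAIN knock-down (KD) and scramble control were already known when the set was made. Their differences between KD and scramble control are therefore given as a description, without p-values. So is the interaction of KD with LPS, which is the difference of those differences. Which other measured values entered the choice is not known, so the p-values of the LPS differences are a description too. Lists of other genes below were chosen with earlier results of these data known, so their counts and p-values are a description as well.

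The libraries came from ASC52telo hTERT, one immortalized line of human adipose-derived stromal cells, differentiated to adipocytes and collected at day 14. Scramble control cells carried a scramble shRNA and KD cells an shRNA against the long non-coding RNA linc-ADAIN, both from a lentiviral vector with ZsGreen, and ZsGreen-positive cells were sorted before differentiation. Each was left without LPS or given 100 ng/mL LPS for 4 h, which gave 4 groups of 3 libraries: scramble control, scramble control with LPS, KD and KD with LPS. All 4 groups were differentiated with insulin, dexamethasone, isobutylmethylxanthine and rosiglitazone for 7 days and kept in insulin and dexamethasone for 7 more, so the synthetic glucocorticoid dexamethasone at 1 µM was present in every group and no group lacked it. The triplicates belong to 1 experiment on 1 line, and nothing in the labels says that they were separate transductions, so the errors and p-values measure only the spread between these samples.

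Glucocorticoids enter cells freely, and in fat tissue a reductase in the endoplasmic reticulum regenerates the active hormone from its inert ketone form. The hormone binds a cytosolic receptor held by heat shock proteins and immunophilins. The loaded receptor moves to the nucleus, where it raises some genes from palindromic DNA elements and lowers many inflammatory genes. Glucocorticoids are part of the usual cocktail that turns stromal cells into adipocytes.

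Total counts on named genes were 28.4 to 53.8 M per library (M, units of 1e+06), and log2 counts per 1e+06 counts (CPM) correlated at 0.977 to 0.990 within groups. Transcript levels of the KD target, linc-ADAIN, were not analysed here. The 12 adipocyte markers summed to 3503, 3917 and 4736 CPM in the 3 scramble libraries and 4004, 4589 and 4249 CPM with LPS. In KD they summed to 2070, 1558 and 721 CPM, and with LPS to 1299, 905 and 570 CPM, so every KD library was below every scramble library. Among these markers, 9 of 12 were called lower in KD without LPS and 10 of 12 with LPS, none higher, where 15.1% and 14.2% of all genes tested were called lower. Of the 10 stromal and preadipocyte markers, 4 were called higher and 3 lower in each KD comparison, with 9 tested, and their sum was 5979 to 7404 CPM in scramble control and 8251 to 9845 CPM in KD (5666 to 6422 and 9315 to 10732 CPM with LPS). Without LPS, macrophage and leukocyte markers summed to 52.8 to 58.7 CPM for scramble libraries, against 31.2 to 36.9 CPM for KD libraries. After LPS these sums were 56.3 to 69.0 and 26.7 to 31.8 CPM. CD68 alone averaged 53.6 CPM over the scramble libraries without LPS. CD3E was at 0 in every library, and ITGAM at 0 in every library of the groups other than KD. The 5 endothelial markers summed to 23.6 to 27.1 CPM for scramble libraries, against 11.8 to 12.3 CPM for KD libraries. After LPS the ranges were 15.3 to 17.0 and 8.45 to 13.2 CPM. Both sums were thus lower in every KD library than in every scramble library. In such bulk RNA, fewer cells of a type and less RNA per cell cannot be told apart. The part of these markers in the results below was not tested.

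Sequences around the members were read first, for the palindromic element that the receptor binds. The pattern searched was GNACA, NNN and TGTNC in a row, 13 letters that read the same on both strands, within 10 kb of the start of the canonical transcript. It was found near 5 of the 10 members, against 22.8% of 19944 protein-coding genes. The AKR1C1 and AKR1C2 matches lie in nearly the same sequence of intron 3 of both genes and are not separate cases, so nothing is read from this share. All 6 matches lay in introns of the canonical transcript. They are shown because they place the letters of the element at these genes, as 29 bases on the strand of the gene with the 13 letters of the pattern in capitals (genome hg38, annotation GENCODE 44).
HSD11B1, chr1:209707369-209707397, intron 4, 2537 bases after the start: tgctggagGTACAGCCTGTCCtggtccta
HSD11B1, chr1:209707730-209707758, intron 4, 2898 bases after the start: tgctggagGTACAGCTTGTCCtggtccta
FKBP5, chr6:35687750-35687778, intron 1, 1151 bases after the start: gtggttcaGGACAGTGTGTTCagcgtttg
TSC22D3, chrX:107767837-107767865, intron 1, 7936 bases after the start: atggcccaGAACATACTGTGCtgtcccaa
AKR1C1, chr10:4968160-4968188, intron 3, 4759 bases after the start: catatgtaGTACACTCTGTACataccact
AKR1C2, chr10:4999398-4999426, intron 3, 4445 bases after the start: catatgtaGTACACTTTGTACataccact

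Among genes with a match, HSD11B1, FKBP5, AKR1C1 and AKR1C2 were lower in KD and TSC22D3 was higher. The windows of NR3C1, TSC22D1, ZBTB16, AKR1C3 and SGK1 did not hold these letters. Each gene was searched around the start of its canonical transcript only. NR3C1, TSC22D1, AKR1C3 and SGK1 have RefSeq promoters too far apart to share a window, so not all of their starts were covered. Distances above are counted from the canonical start, which lies inside the gene spans given below. In 300-base promoters from RefSeq (GRCh38.p14) the pattern was in 0.39% of 27195, and in none of those listed for the 9 members with an entry. A match is a description of letters only, since binding was not measured in these libraries.

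Without LPS, HSD11B1 and AKR1C1, AKR1C2 and AKR1C3 were lower in KD, FKBP5 was lower to a smaller extent, and TSC22D3, SGK1 and, to a smaller extent, TSC22D1 were higher. NR3C1, the receptor gene itself, and ZBTB16 did not pass the threshold. Called means an adjusted p under 0.05 in edgeR's quasi-likelihood test over all genes. By that rule 3 members were higher and 5 lower, where 12.1% and 15.1% of the 16217 genes tested were called higher and lower. Past 2-fold there were 6 members, with a background of 7.77%. With LPS in both arms, 4 members were higher and 5 lower (background 12.7% and 14.2% of 15981), and 8 of them were past 2-fold (8.48%). Because the members were chosen with these differences known, nothing is read from these counts.

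**Figure D1:**
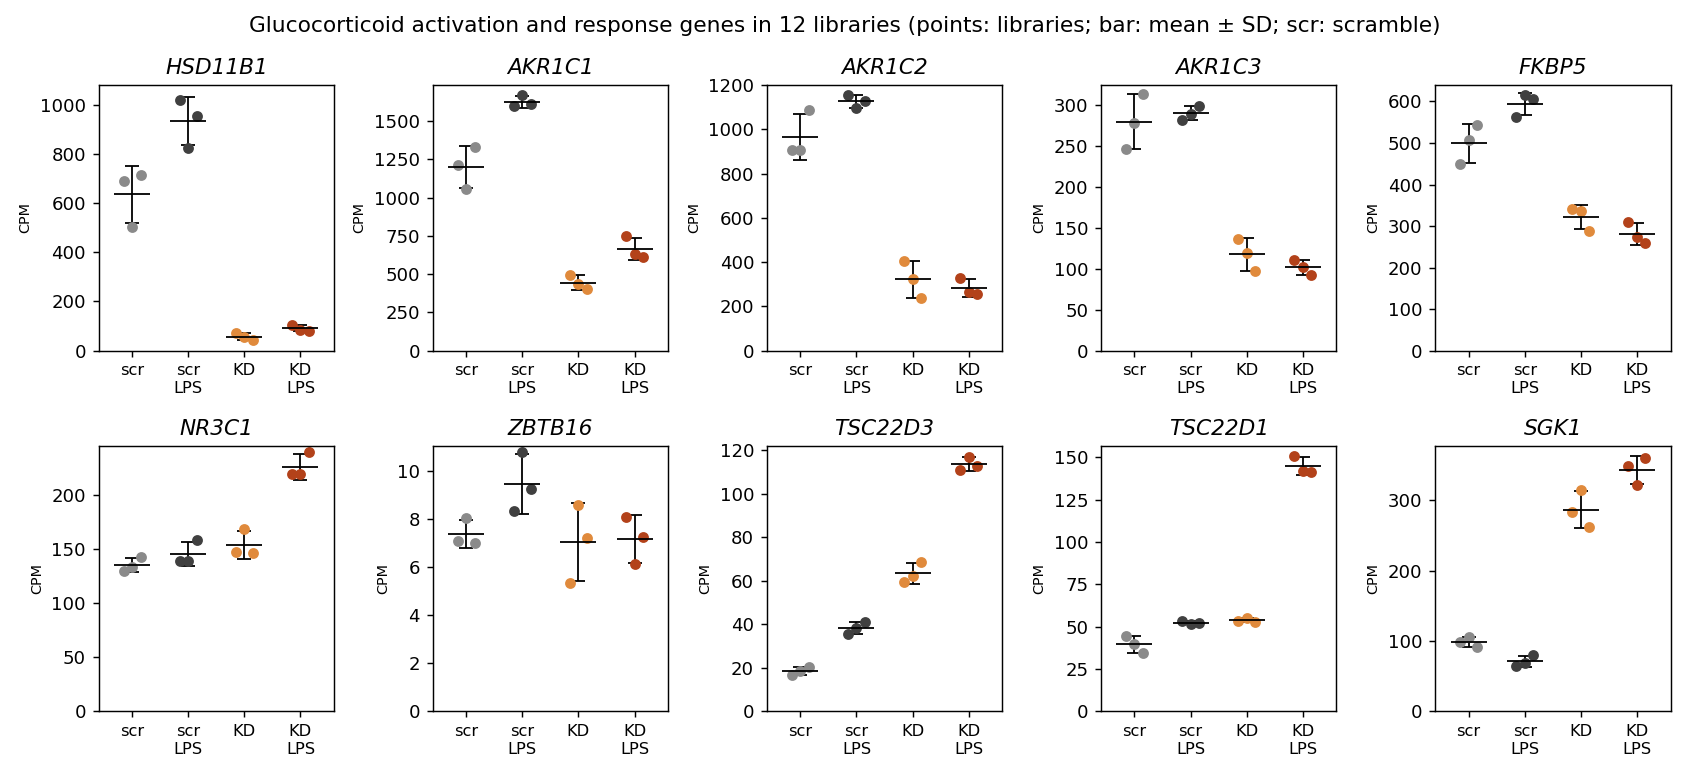
CPM of each of the 10 members (vertical axis, linear from 0) in the 4 groups, where scr is scramble control; points are single libraries and bars the mean ± SD of 3. HSD11B1 lies between 502 and 1018 CPM in the 6 scramble libraries and between 43.5 and 105 CPM in the 6 KD libraries, while TSC22D1 lies between 34.5 and 55.4 CPM in 3 groups and between 141 and 151 CPM in KD with LPS.

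HSD11B1 encodes the reductase that regenerates cortisol from cortisone (chromosome 1, 209686178 to 209734949, hg38). The scramble libraries were at 689, 502 and 715 CPM and the KD libraries at 71.6, 56.7 and 43.5 CPM. With LPS, scramble libraries were at 1018, 826 and 955 CPM and KD libraries at 105, 84.9 and 81.9 CPM. No KD library came near a scramble library. HSD11B1 was 11.1-fold lower in KD without LPS (log2 difference -3.47, SE 0.18) and 10.3-fold lower with LPS (-3.37, SE 0.11), the largest differences among the members in both comparisons. LPS was accompanied by a rise of HSD11B1 in both arms, by 0.57 on the log2 scale in scramble control (SE 0.13, adjusted p = 0.0121 in edgeR's test) and by 0.66 in KD (SE 0.15, adjusted p = 0.00862). Without the third library of scramble control with LPS, the rise in scramble control had an adjusted p of 0.0515. The adipocyte markers given above moved the same way as HSD11B1 between KD and scramble control, but with LPS the marker sums of the scramble libraries overlapped those without LPS. Within KD, and within KD with LPS, the HSD11B1 values ran in the order of the marker sums, but not within scramble control.

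H6PD, which supplies the reductase with its cofactor in the same compartment, was at 303 to 320 CPM in scramble control and 226 to 246 CPM in KD. Its log2 difference was -0.38 (SE 0.071, adjusted p = 0.00188 in edgeR's test) without LPS and -0.55 (SE 0.083, adjusted p = 0.000203) with LPS. HSD11B2, the enzyme that works in the opposite direction, stayed under 1 CPM, at 0 to 0.84 CPM over the 12 libraries. Among the 24 other steroid-metabolising and transport genes, 16 were tested without LPS, of which 3 were called higher and 4 lower. With LPS, 4 of 15 were called higher and 4 lower. Over all genes, 12.1% and 15.1% were called higher and lower without LPS and 12.7% and 14.2% with LPS. CYP19A1, the aromatase, was higher by 1.89 (SE 0.15, adjusted p = 2.37e-06) and HSD17B4, a peroxisomal enzyme of fatty acid oxidation that also oxidises steroids, was lower by 1.13 (log2 difference -1.13, SE 0.093, adjusted p = 3.57e-06).

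AKR1C1, AKR1C2 and AKR1C3 encode aldo-keto reductases of steroid hormones and prostaglandins, in a cluster on chromosome 10 (4963253 to 4983283, 4987775 to 5018031 and 5035354 to 5107686). The values of these genes are uncertain between the copies, because the coding sequences of AKR1C1 and AKR1C2 are 98.0% identical over 969 bases (19 differ). AKR1C1 and AKR1C3 are 91.4% identical, and AKR1C2 and AKR1C3 91.0%. Of the runs of 31 bases in GENCODE transcripts, the default length that kallisto matches, 54.4% of those of AKR1C2, 68.2% of those of AKR1C1 and 91.7% of those of AKR1C3 occur in no other gene. The first coding exon of each is shown to make the likeness visible, with the 10 positions that are not the same in all of the copies in capitals.
AKR1C1, chr10:4963445-4963528, plus strand: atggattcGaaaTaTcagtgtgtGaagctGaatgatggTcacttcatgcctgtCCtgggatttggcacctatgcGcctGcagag
AKR1C2, chr10:5003752-5003835, minus strand: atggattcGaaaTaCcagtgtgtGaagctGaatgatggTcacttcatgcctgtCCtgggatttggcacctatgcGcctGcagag
AKR1C3, chr10:5094445-5094528, plus strand: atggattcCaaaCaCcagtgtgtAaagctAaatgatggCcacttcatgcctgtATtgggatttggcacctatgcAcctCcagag

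The likeness of AKR1C1 and AKR1C2 extends upstream. Their RefSeq promoters (GRCh38.p14, 250 bases before and 50 after the start) share an unbroken run of 245 bases, in capitals here, which ends 2 bases before the start of AKR1C1 and 6 before that of AKR1C2. They are shown to make this likeness visible, and its part in the KD differences of these genes was not tested.
AKR1C1, chr10:4963165-4963464, plus strand: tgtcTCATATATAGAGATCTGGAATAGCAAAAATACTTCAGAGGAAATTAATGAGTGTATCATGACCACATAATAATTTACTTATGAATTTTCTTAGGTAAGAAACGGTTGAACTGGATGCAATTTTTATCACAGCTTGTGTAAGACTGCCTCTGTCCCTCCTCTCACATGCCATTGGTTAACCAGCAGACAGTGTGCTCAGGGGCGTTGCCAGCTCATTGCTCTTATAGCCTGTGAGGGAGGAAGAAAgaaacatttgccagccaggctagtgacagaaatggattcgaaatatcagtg
AKR1C2, chr10:5003808-5004107, minus strand: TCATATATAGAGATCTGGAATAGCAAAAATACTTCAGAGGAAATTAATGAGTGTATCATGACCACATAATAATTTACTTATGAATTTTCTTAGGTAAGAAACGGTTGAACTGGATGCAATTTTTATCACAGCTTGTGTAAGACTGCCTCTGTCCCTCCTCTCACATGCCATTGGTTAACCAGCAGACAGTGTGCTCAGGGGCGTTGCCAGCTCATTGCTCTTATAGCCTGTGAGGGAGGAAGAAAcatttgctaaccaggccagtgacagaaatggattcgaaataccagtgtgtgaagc

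AKR1C1 was at 1211, 1060 and 1331 CPM in scramble control and 497, 435 and 401 CPM in KD. With LPS it was at 1600, 1673 and 1609 CPM in scramble control and 751, 632 and 614 CPM in KD. The arms did not overlap, with log2 differences of -1.43 (SE 0.10) and -1.29 (SE 0.081). AKR1C2 was at 908, 905 and 1085 CPM in scramble control and 403, 326 and 236 CPM in KD, and with LPS at 1153, 1097 and 1128 CPM against 330, 267 and 256 CPM. Its differences of -1.58 (SE 0.16) and -1.99 (SE 0.094) again separated every library of the arms. AKR1C3, which also makes active androgens and prostaglandins, was at 246, 278 and 313 CPM against 137, 119 and 97.2 CPM without LPS, and at 281, 289 and 299 CPM against 111, 102 and 91.8 CPM with LPS (-1.24, SE 0.12, and -1.51, SE 0.085). Across the members of this cluster, KD libraries were 2.37-fold to 3.96-fold lower in the fits.

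The members of this cluster differed in their values after LPS. AKR1C1 rose by 0.45 in scramble control (SE 0.089, adjusted p = 0.00562 in edgeR's test) and by 0.58 in KD (SE 0.093, adjusted p = 0.000623). The differences of AKR1C2 were 0.23 in scramble control (adjusted p = 0.0999) and -0.18 in KD (0.541), and those of AKR1C3 were 0.067 (0.705) and -0.21 (0.297). The share of AKR1C1 in the summed counts of these genes was 47.2% to 51.2% in scramble control, 52.7% to 54.7% with LPS, 47.9% to 54.6% in KD and 63.0% to 63.8% in KD with LPS. AKR1C2 took 38.4% to 40.4%, 35.9% to 38.0%, 32.1% to 38.9% and 26.6% to 27.7% in the same order. The KD libraries with LPS thus held the highest shares of AKR1C1 and the lowest of AKR1C2, without overlap with another group. With the counts of the cluster added into 1 row, the LPS difference was 0.33 in scramble control (adjusted p = 0.0236) and 0.25 in KD (adjusted p = 0.185), so the rise in KD did not pass as a sum. How kallisto divided reads between AKR1C1 and AKR1C2 was not tested.

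**Figure D2:**
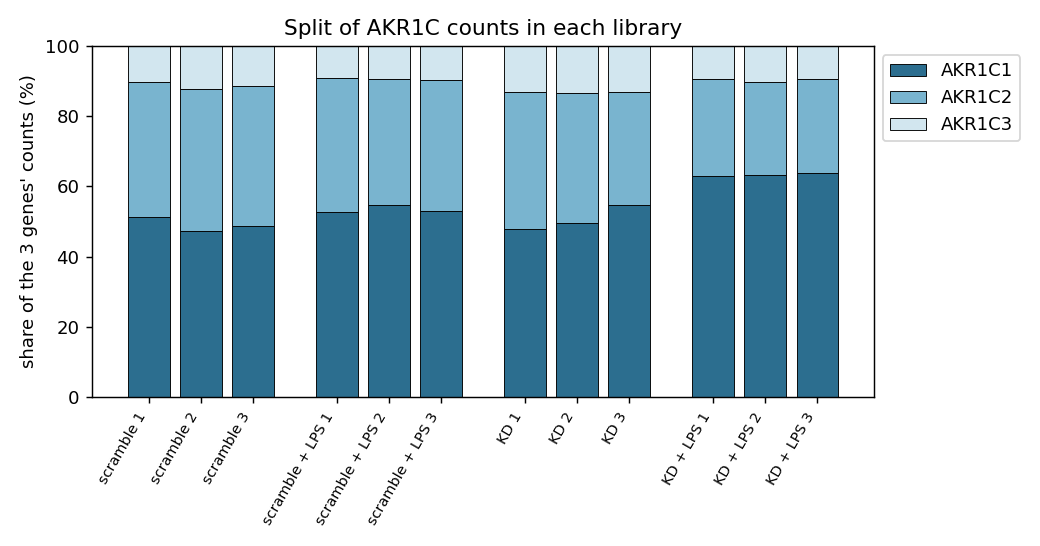
Share of the summed counts of AKR1C1, AKR1C2 and AKR1C3 (vertical axis, percent) in each of the 12 libraries, one stacked bar per library. AKR1C1 takes 63.0% to 63.8% in the libraries of KD with LPS and at most 54.7% in the other groups.

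AKR1B1, an aldose reductase of the same superfamily, was at 450 to 500 CPM in scramble control and 154 to 167 CPM in KD, a log2 difference of -1.58 (SE 0.077, adjusted p = 9.77e-08 in edgeR's test). AKR1C genes are also known targets of the oxidative stress factor NRF2. Of 15 other NRF2 targets, 10 were called lower and 2 higher in KD without LPS, with a median log2 difference of -0.55 where that of all genes was 0.024 and 15.1% and 12.1% of all genes were called lower and higher. PGD, an enzyme of the pentose phosphate pathway, was lower (-1.42, SE 0.12, adjusted p = 3.56e-06), and HMOX1, haem oxygenase, was higher (1.18, SE 0.12, adjusted p = 1.74e-05). With LPS, 9 were called lower and 1 higher (median -0.51, with 14.2% and 12.7% of all genes).

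NR3C1 encodes the glucocorticoid receptor (chromosome 5, 143277931 to 143435512). It was at 130, 134 and 142 CPM in scramble control and 147, 168 and 146 CPM in KD. The KD libraries lay just above the scramble libraries (0.19, SE 0.082), a difference that was not called with TMM scaling. With LPS, the scramble libraries were at 139, 139 and 158 CPM and the KD libraries at 219, 219 and 240 CPM, 1.55-fold higher in KD (0.63, SE 0.081). The LPS difference of NR3C1 was 0.12 in scramble control (SE 0.079, adjusted p = 0.39 in edgeR's test), where the libraries overlapped, and 0.55 in KD (SE 0.081, adjusted p = 0.000314), where they did not. The difference between those LPS effects was 0.45 (SE 0.11).

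FKBP5 is a co-chaperone that lowers the affinity of the receptor for hormone and is among the genes the receptor induces most readily (chromosome 6, 35573585 to 35728583). Scramble libraries were at 449, 506 and 543 CPM and KD libraries at 341, 336 and 289 CPM. With LPS the values were 563, 615 and 605 CPM against 311, 275 and 259 CPM. FKBP5 was 1.55-fold lower in KD without LPS (-0.63, SE 0.093) and 2.11-fold lower with LPS (-1.08, SE 0.082), with no overlap in either. The LPS difference was 0.26 in scramble control (SE 0.085, adjusted p = 0.0609 in edgeR's test) and -0.19 in KD (SE 0.087, adjusted p = 0.198). The interaction was -0.45 (SE 0.13).

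The 19 receptor chaperones and cofactors were mostly not called: 7 were lower and none higher in KD without LPS, and 6 lower and 1 higher with LPS (medians -0.092 and -0.16), where 15.1% and 14.2% of all genes were called lower. FKBP4, the counterpart of FKBP5 that favours hormone binding, was at 96.8 to 109 CPM in scramble control and 105 to 107 CPM in KD. NCOR1, a corepressor of nuclear receptors, was lower by 1.06 without LPS (-1.06, SE 0.087, adjusted p = 3.42e-06 in edgeR's test). NCOR1 lies on chromosome 17 (16029065 to 16218185), and 25 other tested genes that start within 1 Mb of it had a median of -0.50, with 8 called lower and none higher. With LPS in both arms, NCOR1 was lower too (-1.10, SE 0.10, adjusted p = 2.19e-06 in the same test). The 23 such genes tested there had a median of -0.74, with 11 called lower and none higher. NCOA3, a coactivator, was the 1 gene called higher in KD than in scramble control when both had LPS (0.47, SE 0.079, adjusted p = 0.000587). Its LPS difference was -0.99 in scramble control and -0.38 in KD.

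TSC22D3 encodes GILZ, a leucine zipper protein that glucocorticoids induce and that restrains inflammatory transcription (chromosome X, 107713221 to 107777342). Its level was 16.9, 18.5 and 20.3 CPM in scramble control and 59.6, 62.3 and 68.7 CPM in KD. With LPS it was 35.7, 38.6 and 41.2 CPM in scramble control and 111, 117 and 113 CPM in KD. The 4 groups were fully separate, with scramble control lowest and KD with LPS highest. TSC22D3 was 3.43-fold higher in KD without LPS (1.78, SE 0.099) and 2.95-fold higher with LPS (1.56, SE 0.087). It rose with LPS by 1.07 in scramble control (SE 0.10, adjusted p = 3.27e-05 in edgeR's test) and by 0.84 in KD (SE 0.083, adjusted p = 8.51e-06). The interaction was -0.21 (SE 0.13).

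TSC22D1, a relative of GILZ known as a target of TGF-beta, was at 44.7, 39.7 and 34.5 CPM in scramble control and 53.7, 55.4 and 53.0 CPM in KD (chromosome 13, 44432143 to 44577147). With LPS it was at 53.3, 51.8 and 52.5 CPM in scramble control but 151, 142 and 141 CPM in KD. KD with LPS thus stood apart from the other groups, whose highest library was at 55.4 CPM. The KD difference was 0.45 (SE 0.099) without LPS and 1.46 (SE 0.078) with LPS. LPS raised TSC22D1 by 0.42 in scramble control (SE 0.098, adjusted p = 0.0149 in edgeR's test) and by 1.42 in KD (SE 0.078, adjusted p = 1.33e-08). The interaction was 1.02 (SE 0.12), so the KD difference was 2.03-fold larger with LPS. The call in scramble control rested on single libraries, with an adjusted p of 0.0651 without the second scramble library and 0.0534 without the third library of scramble control with LPS. TSC22D2, another relative, was lower in KD (-1.13, SE 0.10, adjusted p = 6.8e-06).

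SGK1, a kinase that glucocorticoids, serum and osmotic stress induce, was at 98.9, 106 and 92.3 CPM in scramble control and 284, 315 and 262 CPM in KD (chromosome 6, 134169248 to 134318112). With LPS it was at 64.4, 69.4 and 80.1 CPM in scramble control and 348, 322 and 360 CPM in KD. Every KD library was above every scramble library, 2.90-fold without LPS (1.54, SE 0.090) and 4.81-fold with LPS (2.27, SE 0.094). LPS lowered SGK1 by 0.46 in scramble control (-0.46, SE 0.094, adjusted p = 0.00647 in edgeR's test), and the difference in KD was 0.26 (SE 0.081, adjusted p = 0.0553). The interaction was 0.73 (SE 0.13). NDRG1, a substrate of SGK1, was at 274 to 301 CPM in scramble control and 462 to 564 CPM in KD (0.80, SE 0.088, adjusted p = 3.68e-05).

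ZBTB16 encodes PLZF, a zinc finger repressor that glucocorticoids induce strongly in stromal cells (chromosome 11, 114059041 to 114256765). It was at 7.08, 8.04 and 6.98 CPM in scramble control, 8.31, 10.8 and 9.26 CPM with LPS, 5.33, 8.58 and 7.21 CPM in KD and 8.09, 6.11 and 7.24 CPM in KD with LPS. The groups overlapped except for those with LPS and the LPS pair in scramble control, and it was called in none of the comparisons. Its differences in KD were -0.058 (SE 0.19) without LPS and -0.40 (SE 0.18) with LPS. After LPS they were 0.37 in scramble control (adjusted p = 0.144 in edgeR's test) and 0.018 in KD (adjusted p = 0.977).

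**Figure D3:**
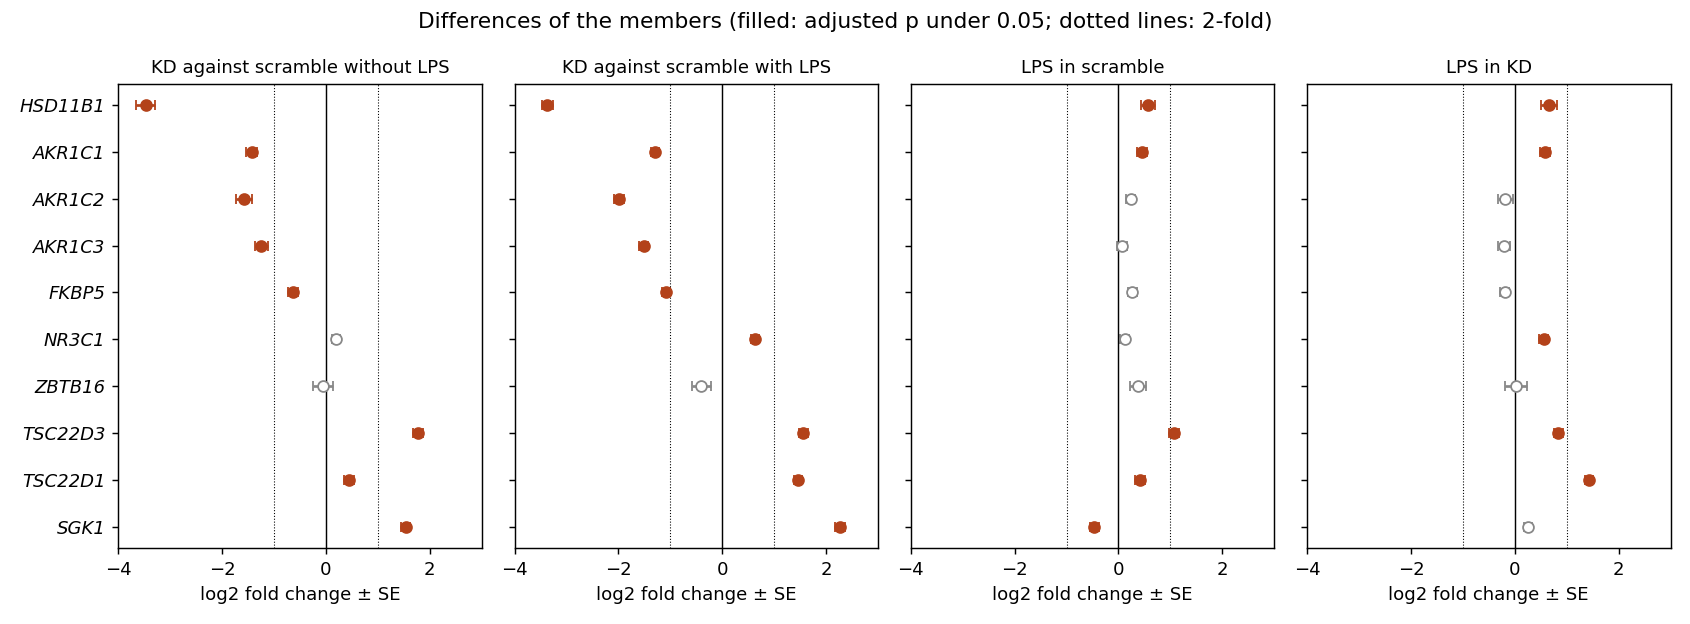
Log2 fold change ± SE of the 10 members (rows) in the 4 comparisons (panels), filled where the adjusted p was under 0.05, with dotted lines at 2-fold. HSD11B1 is lowest in both KD panels (-3.47 and -3.37), SGK1 reaches 2.27 in KD with LPS, and TSC22D1 moves from 0.45 without LPS to 1.46 with it.

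Over the LPS comparisons, 4 members were called higher and 1 lower in scramble control (background 5.9% and 8.38% of 15920 genes), and 5 higher and none lower in KD (5.32% and 6.03% of 16169). In each, 1 member was past 2-fold, TSC22D3 in scramble control and TSC22D1 in KD (2.68% and 2.25%). As the members were chosen on measured values of these libraries, nothing is read from these counts. The interaction was called in 2 members, TSC22D1 and SGK1, where 1.28% of 17173 genes were called, and nothing is read from that count. The interaction of HSD11B1 was 0.11 with an SE of 0.22, an SE as wide as several of the LPS differences given here. These comparisons share libraries with those of KD and are not independent of them.

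The members can be ordered within a group only per length. Per kb of canonical transcript, mean levels in scramble control were 459 ± 84.1 CPM per kb for HSD11B1 (SD, n = 3), then 300.5 ± 32.0 for AKR1C2, 235 ± 28.3 for AKR1C3, 184 ± 20.8 for AKR1C1 and 133 ± 12.7 for FKBP5. Much lower were SGK1 with 30.6 ± 2.2 CPM per kb, NR3C1 with 19.95 ± 0.93, TSC22D3 with 8.19 ± 0.74, TSC22D1 with 6.65 ± 0.85 and ZBTB16 with 0.87 ± 0.069. Of these neighbours, TSC22D3 and TSC22D1 lay within their SDs. The order at the top depended on the length used: per kb of coding sequence AKR1C1 stood first with 1239 CPM per kb, ahead of AKR1C2 with 997 and HSD11B1 with 725. In KD, the level of SGK1 per kb of transcript (88.4 ± 8.13) was above that of HSD11B1 (41.4 ± 10.1), the reverse of scramble control.

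Other genes that glucocorticoids are known to induce were called in both directions in KD. Of 29 tested beside the members, 8 were called higher and 5 lower without LPS (median 0.014), and 6 higher and 8 lower with LPS (median 0.054). Over all genes tested, 12.1% were called higher and 15.1% lower without LPS, and 12.7% and 14.2% with LPS, with medians of 0.024 and 0.025. CD163, a scavenger receptor, was higher (3.99, SE 0.20, adjusted p = 9.77e-08 in edgeR's test), as were SAA1, an acute phase protein (2.58, SE 0.15), and DDIT4, an inhibitor of mTOR signalling (2.26, SE 0.17). PDK4, which restrains glucose oxidation, was lower (-1.72, SE 0.33, adjusted p = 0.00215), as were ANGPTL4, an inhibitor of lipoprotein lipase (-1.48, SE 0.093), and APOD, a lipocalin (-1.16, SE 0.29). The APOD libraries overlapped, at 74.7 to 197 CPM in scramble control and 57.8 to 89.8 CPM in KD. The PDK4 values in KD, at 136, 97.7 and 40.1 CPM, stood beside adipocyte marker sums of 2070, 1558 and 721 CPM in the same libraries. Among the members, HSD11B1, AKR1C1, AKR1C2, AKR1C3 and FKBP5 also ran in the order of these sums, in KD and in KD with LPS. In scramble control, only AKR1C3 and FKBP5 of these did. The part of the adipocyte markers in the differences of PDK4 and of these members was not tested.

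Of the inflammatory genes that glucocorticoids are known to repress, 12 of 16 tested were called higher and none lower in KD without LPS, and 15 of 17 with LPS (medians 1.70 and 1.94), where 12.1% and 12.7% of all genes were called higher and their medians were 0.024 and 0.025. The highest were MMP1, a collagenase (6.13, SE 0.24, adjusted p = 2.31e-08 in edgeR's test), IL1B, a cytokine (3.31, SE 0.32), and MMP3, a stromelysin (2.52, SE 0.13). These genes are also raised by LPS: 11 of 15 were called higher and 1 lower in scramble control, and 13 of 16 higher in KD, where 5.9% and 5.32% of all genes were called higher. As this list was chosen with earlier results of these data known, nothing is read from its counts.

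**Figure D4:**
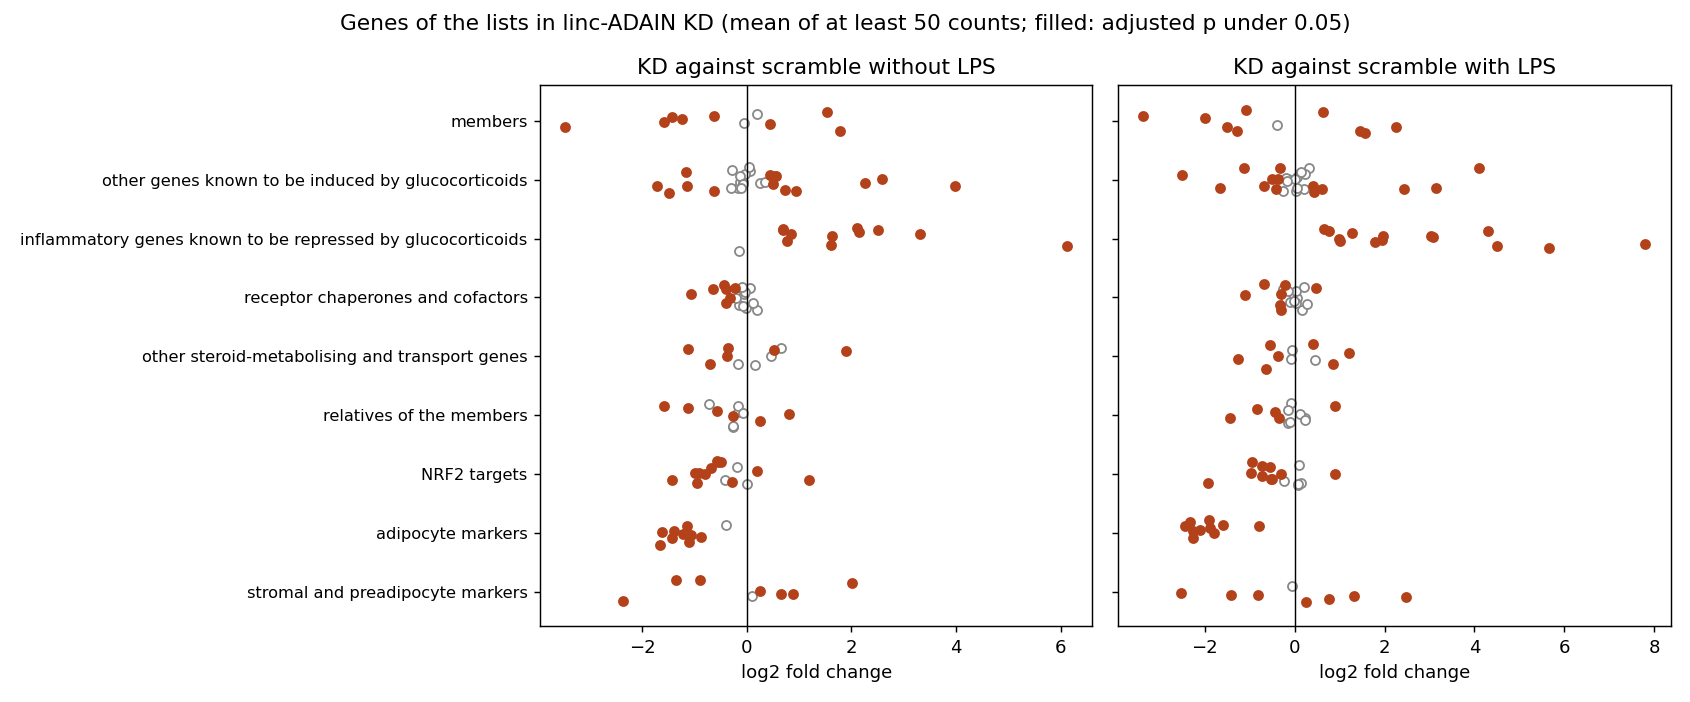
Log2 fold change (horizontal axis) of the members and of 8 lists (rows) in linc-ADAIN KD without and with LPS, one point per gene with a mean of at least 50 counts over the libraries compared, filled where the adjusted p was under 0.05. Called points of the other glucocorticoid-induced genes lie on both sides of 0, those of the inflammatory list are all above 0, and those of the adipocyte markers are all below 0.

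The log2 CPM of each member over the 12 libraries, centred on its mean, was compared with that of 11811 genes. The measure was the root mean square difference over the 12 libraries, so it includes the spread between replicates. It is given for the 8 members whose group means spanned at least 1 log2 unit. HSD11B1 was closest to CES1 (0.34), FKBP5 to PRDX6 (0.081), TSC22D3 to ACKR3 (0.16), TSC22D1 to GRAMD1A (0.15) and SGK1 to CTSK (0.12). AKR1C1 was closest to NOVA1 (0.16), AKR1C2 to ALDH3A2 (0.14) and AKR1C3 to S100A10 (0.074). AKR1B1 was the third nearest of AKR1C1 (0.18).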

How the data were processed

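The authors demultiplexed reads with bcl2fastq 2.19, pseudoaligned them with kallisto 0.44.0 (GRCh38) and deposited estimated counts per gene name, all whole numbers without scaling. They name DESeq2 1.32.0 for their tests. The annotation release of the index is not given in the sources used here. A row with no name (0.235% to 0.306% of counts) was left out.

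In R 4.3.3, genes with at least 10 counts over the libraries of a fit were tested with edgeR 4.0.16 (TMM scaling, quasi-likelihood F test, Benjamini-Hochberg over all genes tested). The SE is the size of the log2 fold change divided by the square root of F. Each comparison used its 6 libraries, and the interaction of KD with LPS all 12. CPM used TMM factors over the 12 libraries. The scripts were tested on simulated counts. Depth was 28.4 to 53.8 M on named genes. Within groups, no pair of libraries agreed within sampling noise (chi-square per degree of freedom 17.8 to 45.2).

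The members and lists were chosen with earlier results of these data known. All members are named. From each list, the genes named are among the called genes with the largest differences in each direction and a mean of at least 50 counts, apart from HSD11B2 and FKBP4, chosen for their role. The window around NCOR1 was set after its value was seen. Alternatives were other scalings and filters, DESeq2 1.42.0, the replicate number as a block, all 12 libraries in one fit, each library left out and AKR1C counts added.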

Additional observations from a re-analysis of the deposited data

Results flagged for a closer look

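The interaction of KD with LPS passed the threshold in edgeR's fit over all 12 libraries in 2 members, as it did in 1.28% of all genes. Since the members were chosen with the KD differences known, these values are a description and lend no support. For TSC22D1 the KD difference was larger with LPS by 1.02 on the log2 scale (SE 0.12), with the highest values in all 3 libraries of KD with LPS. For SGK1 it was larger by 0.73 (SE 0.13), with the lowest values in all 3 libraries of scramble control with LPS and the highest in all 3 of KD with LPS. The adipocyte marker sum was 570 to 1299 CPM in KD with LPS and 721 to 2070 CPM in KD without it, and its part in these values was not tested.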

How the results depend on the processing

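Of 50 results on members (10 genes in 5 tests), 34 kept their direction and side of the threshold in every alternative, and 3 lost, 7 gained and 7 turned direction in at least 1. Leaving out 1 library gave 1187 to 2106 genes and 3 to 7 members for LPS in scramble control (2274 and 5 with all), the fewest genes without the second scramble library and the fewest members without the third library of scramble control with LPS (1461 genes). For the interaction it gave 92 to 243 genes (219 with all), the fewest without the second scramble library. A filter of at least 1 count gave 431 genes and DESeq2 475, each with 4 members, NR3C1 and FKBP5 being added. As the members were chosen with the KD differences known, their counts in the KD comparisons and the interaction say nothing of stability. DESeq2 also called FKBP5 and AKR1C2 for LPS in scramble control and SGK1 for LPS in KD.

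The turned directions were all of results that were not called. ZBTB16 in KD without LPS was 0.048 with library size only, 0.0077 without the second scramble library and 0.0998 without the first KD library (-0.23 to 0.0998 over the libraries left out). For LPS in KD it was -0.038 with library size only, -0.15 without the first KD library and -0.083 without the first library of KD with LPS (-0.15 to 0.18). AKR1C3 for LPS in scramble control was -0.013 without the first scramble library (-0.013 to 0.16), and AKR1C2 for LPS in KD was 0.011 without the first KD library (-0.37 to 0.011). The interaction of HSD11B1 was -0.075 without the third KD library and -0.030 without the first library of KD with LPS (-0.075 to 0.30). With AKR1C counts added, LPS in KD was 0.25 for AKR1C2 and AKR1C3 alike, and the interaction of AKR1C1 was -0.064. Apart from the added rows, the cause was not tested.

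Library size only shifted the median of all genes to 0.13 and 0.11 in the KD comparisons (0.024 and 0.025 with TMM). It moved the calls in KD without LPS from 1965 higher and 2446 lower to 2793 and 1757, and with LPS from 2026 and 2266 to 2609 and 1796. For LPS in KD it moved them from 860 and 975 to 667 and 1227. The difference of NR3C1 in KD without LPS was then 0.30 (0.19 with TMM).

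The labels do not say whether the replicate numbers pair the libraries, and the values here do not settle it. Deviations of libraries with the same number correlated at -0.10 to 0.25. In the 2 KD and the 2 LPS comparisons, 0, 3, 3 and 4 of 6 libraries were closest to their own number. With the replicate block, 3857, 4636, 3260, 2238 and 231 genes were called in the 2 KD comparisons, the 2 LPS comparisons and the interaction, and 8, 9, 7, 6 and 2 members, with FKBP5, AKR1C2 and SGK1 added. Without the block, 4411, 4292, 2274, 1835 and 219 genes were called.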
